A study of Mus musculus with 6 samples.

Results

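Collagens are the triple-helical proteins of the extracellular matrix, and the chains described here are all those outside the set that is typical of cartilage. Of 43496 gene entries, 36 had a symbol made of Col, a number, the letter a and a number after 8 cartilage chains were left out (Col2a1, Col9a1, Col9a2, Col9a3, Col10a1, Col11a1, Col11a2 and Col27a1). The tissue was mouse cranial base at embryonic stage E15.5, when this cartilage floor of the skull is turning into bone, and its RNA was read by sequencing. The series held 3 embryos labelled as controls and 3 Memo1 mutants that carry an allele made with ENU (the mutagen N-ethyl-N-nitrosourea), all of the C57BL/6J strain, with 1 library each. The labels give neither the number of mutant gene copies nor what the controls carry at Memo1, and the tissue was taken whole. The comparison asked how gene expression differs between mutant and control cranial base.

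Values are FPKM, fragments per kilobase of transcript scaled to library size, so levels can be compared between genes. Of the 36 chains 31 averaged 1 FPKM or more across the 6 libraries and were tested, among 15710 such genes. Memo1 itself was 19.1 to 23.1 FPKM in controls and 20.1 to 25.4 FPKM in mutants, so its RNA level does not check the genotype labels. Library mutant 1 stood apart. Across tested genes, which are not independent replicates, its log2 FPKM had r = 0.748 to 0.762 against the other 5, where those 5 had 0.968 to 0.981 among themselves, and 3447 tested genes were listed at 0 in it, against 38 to 68 elsewhere. Depth read from the steps between low values was 80.2% to 152% of that of control 1 in the other libraries and could not be read in mutant 1. Mutant 3 was the only female by Xist (114 FPKM, and at most 0.0942 FPKM elsewhere). Chondrocyte markers marked the tissue as labelled: the sum of 8 (Col2a1, Acan, Sox9, Matn1, Matn3, Hapln1, Comp and Col9a1) was 2580 to 3435 FPKM in controls and 3840 to 4346 FPKM in mutants.

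Collagen chains assemble in groups of 3 into a triple helix, in which glycine recurs at a fixed spacing. Fibrillar collagens pack into the rope-like fibrils of bone, tendon and dermis, with type I as the main collagen of bone matrix. Collagen IV forms the network of basement membranes, collagen VI forms beaded microfibrils around cells, and FACITs (fibril-associated collagens with interrupted triple helices) sit on the surface of fibrils. Transmembrane collagens span the plasma membrane, as Col17a1 does in the hemidesmosomes that anchor basal epithelial cells.

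Without any use of expression, the number of coding exons of 54 bases set the fibrillar genes apart from all other members but Col22a1. In the GENCODE annotation the 7 fibrillar genes held 21 to 33 coding exons of exactly 54 bases, which encode 6 repeats of glycine and its 2 following residues. The 9 basement membrane genes held 1 to 6 such exons, the 6 beaded filament genes 2 or 3 and the 4 transmembrane genes 3 or 4. These ranges overlapped. The FACITs varied most, from 4 in Col12a1, Col14a1 and Col20a1 to 12 in Col16a1 and 28 in Col22a1. Col8a1 and Col8a2 had only 2 coding exons each and none of that length. Several members are neighbours among protein-coding genes: Col4a1 with Col4a2, Col4a3 with Col4a4 and Col4a5 with Col4a6 lie head to head, Col3a1 and Col5a2 lie tail to tail, and Col6a1 with Col6a2 as well as Col6a4, Col6a5 and Col6a6 follow each other on the same strand.

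In control cranial base the fibrillar chains led. Col3a1, the chain of type III collagen of soft connective tissue, was at 1435 ± 291 FPKM, Col1a1 at 1097 ± 233 FPKM and Col1a2 at 1067 ± 169 FPKM (SD, n = 3). These 3 overlapped with each other in single controls, and each lay above every other member. The next 3 were Col6a2, Col16a1 and Col6a1 at 266, 250.1 and 238 FPKM, which also overlapped. A further 7 chains had control means above 100 FPKM (Col26a1, Col5a2, Col5a1, Col4a1, Col6a3, Col8a2 and Col12a1), 8 lay between 10 and 100 FPKM, and 10 between 1 and 10 FPKM. The 5 chains that were not tested were Col4a3, Col4a4, Col6a4, Col6a5 and Col19a1, each with a control mean under 0.5 FPKM. By summed FPKM, the fibrillar class made up 67.3% to 70.2% of all non-cartilage collagen in the controls and 63% to 63.8% in the mutants.

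**Figure D1:**
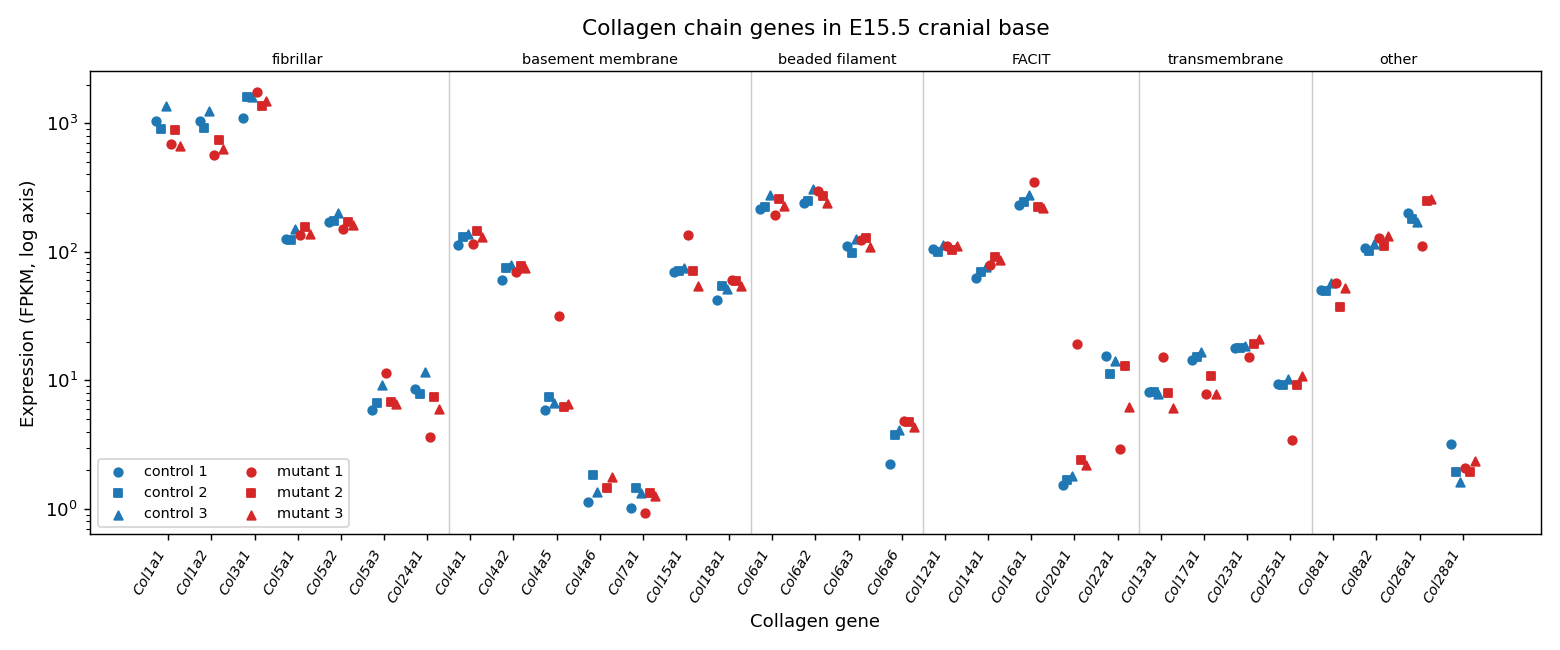
FPKM of the 31 tested collagen genes (log axis) in the 3 control libraries (blue) and the 3 Memo1 mutant libraries (red), grouped by class, 1 point per library and with values of 0 not drawn. Col1a1, Col1a2, Col24a1 and Col17a1 have all red points below all blue ones, and mutant 1 lies far from the other 5 libraries for Col4a5 (31.6 FPKM) and Col20a1 (19.3 FPKM).

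The levels of most collagen chains overlapped between genotypes, and whether they were equal was not tested. In contrast, 4 were lower in every mutant than in any control: Col1a1 and Col1a2, the fibrillar Col24a1, and Col17a1. Another 4 of the tested chains were higher in every mutant: Col18a1, Col6a6, Col14a1 and Col20a1. So was Col4a4, which was too low to test. With all 6 libraries at equal weight, limma with Benjamini-Hochberg adjustment called 0 of 31 members at an adjusted p of 0.05, as it called 0% of all 15710 genes. At an unadjusted p under 0.05 there were 3 members, Col1a1, Col1a2 and Col17a1 (9.68%), against 5.12% of all genes. The 4 members with mutants below make up 12.9% of 31, where all tested genes gave 11.9%, and the 4 with mutants above also make up 12.9%, where all genes gave 8.98%. Both shares are thus near those of all genes, of which 20.9% did not overlap in one direction or the other. With mutants 2 and 3 alone, 6 members lay above all controls, where 16.2% of all genes did, and 5 below, where 20.1% did. The median log2 change over the 31 was 0.030, against -0.046 over all tested genes.

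The number of genes that passed differed with the weights given to the libraries. With limma's array weights, by which mutant 1 counts least (weight 0.0329, against 1.47 to 2.76), 320 genes were called (2.04%, with 0.719% higher in mutants), and without mutant 1 limma called 7. When array weights were joined with a median ratio scaling of the libraries, 227 genes (1.44%) and 0 collagens were called. Among the collagens Col17a1 was the only call with array weights, lower in mutants (3.23% of 31, where 1.32% of all genes were called lower), and 0 were called without mutant 1 (0.0446% of all genes). Unadjusted, 8 of 31 (25.8%) lay under 0.05 with array weights and 5 of 31 (16.1%) without mutant 1, where all genes gave 18.3% and 17%.

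**Figure D2:**
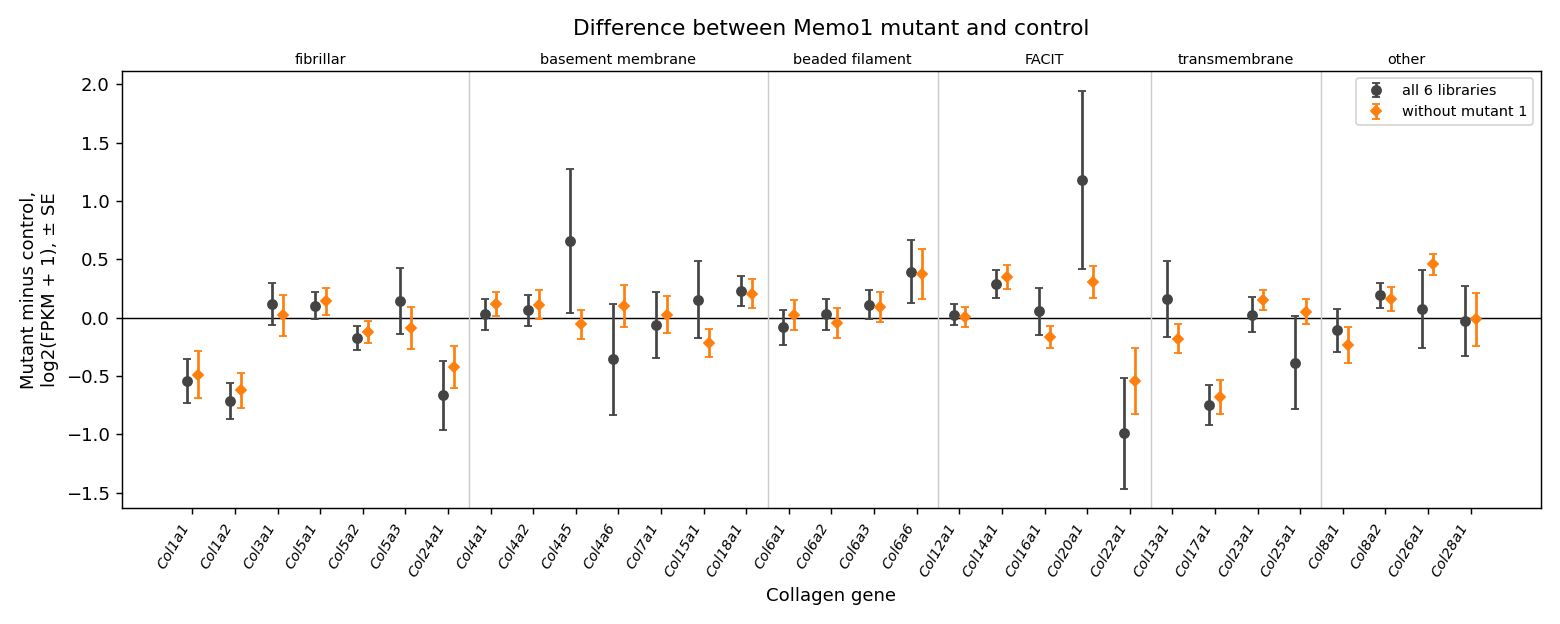
Mutant minus control on the log2(FPKM + 1) scale with its SE, for the 31 tested collagen genes, from all 6 libraries (grey circles) and without mutant 1 (orange diamonds). Col1a1, Col1a2, Col5a2, Col24a1, Col17a1 and Col22a1 lie below 0 with their SE in both. Col18a1, Col6a6, Col14a1, Col20a1 and Col8a2 lie above 0 with their SE in both. When mutant 1 is left out, Col4a5 drops from 0.66 to -0.056 and Col15a1 from 0.15 to -0.21.

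Among the fibrillar chains both chains of type I collagen were lower in mutants. Col1a2 was 1036, 916 and 1250 FPKM in controls 1 to 3 and 569, 745 and 633 FPKM in mutants 1 to 3. Every mutant lay below the lowest control, at means of 1067 ± 169 and 649 ± 88.7 FPKM (SD, n = 3). The log2 change was -0.71 (SE 0.15, limma adjusted p = 0.695), and with array weights it was -0.64 (limma adjusted p = 0.0525). Col1a1 was 1037, 899.7 and 1354 FPKM in the controls, against 687, 891 and 667 FPKM in the mutants. The groups did not overlap here either, but mutant 2 came within 10 FPKM of control 2 (log2 change -0.54, SE 0.19, limma adjusted p = 0.695). In the authors' deposited table the p-value, from a test not given in the sources used here, was 0.0143 for Col1a2 and 0.0675 for Col1a1.

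Col24a1, a minor fibrillar chain, was 8.55, 7.82 and 11.7 FPKM in the controls, against 3.6, 7.37 and 5.98 FPKM in the mutants. All 3 mutants lay below the controls (log2 change -0.66, SE 0.30, limma adjusted p = 0.695), and without mutant 1 the log2 change shrank to -0.42. The other fibrillar chains overlapped between genotypes. Col3a1 was 1099, 1593 and 1612 FPKM in the controls, against 1745, 1372 and 1495 FPKM in the mutants, so its lowest library was a control (log2 change 0.11, SE 0.18). Col5a2, a chain of the type V collagen that nucleates type I fibrils, ranged from 169.6 to 200.2 FPKM in controls and from 149 to 171 FPKM in mutants (log2 change -0.17, SE 0.10). Its partner Col5a1 ranged from 123 to 152 FPKM and from 136 to 156 FPKM (log2 change 0.10, SE 0.12). Col5a3 was 5.85 to 9.24 FPKM in controls and 6.54 to 11.3 FPKM in mutants. Of the 7 fibrillar genes 3 were lower in every mutant and 0 higher (11.9% and 8.98% of all genes), with a median log2 change of -0.17.

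Several osteoblast markers were lower in mutants, as the type I chains were, and none passed with equal weights. With array weights Spp1, Dmp1 and Alpl were called lower (1.32% of all genes), and 0 osteoblast markers were called without mutant 1. The sum of 9 of them (Bglap, Bglap2, Ibsp, Spp1, Sp7, Runx2, Alpl, Dmp1 and Phex) was 984 to 1386 FPKM in controls and 382 to 648 FPKM in mutants, with 5 of the 9 lower in every mutant (11.9% of all genes). Ibsp and Spp1 made up most of the sum, and Runx2 (log2 change 0.17) and Phex (0.098) had the opposite sign and overlapped. Bglap was listed at 0 in mutants 1 and 3, and Bglap2 in mutant 1. Fibroblast and tendon markers, which mark other cells that make type I collagen, summed to 361 to 393 FPKM in controls and 315 to 344 FPKM in mutants over 8 genes, of which Thy1 was listed at 0 in mutant 1. Within that list the small proteoglycan Lum, the largest part of the sum, was lower in every mutant (233 ± 10.4 and 166 ± 17.5 FPKM, SD, n = 3). The tendon genes Tnmd, Mkx and Scx were higher in every mutant (8.98% of all genes), and the median log2 change of the 8 was 0.13. Of the 8 only Scx was called with array weights, higher in mutants (0.719% of all genes). Adipocyte markers (Adipoq, Fabp4, Plin1, Cidec, Car3 and Lep) had sums of 394 to 489 FPKM in the controls, against 137 to 211 FPKM in the mutants. Car3 made up most of each sum, at 297 to 362 FPKM in controls and 92.8 to 158 FPKM in mutants. Each of the 5 tested was lower in every mutant (11.9% of all genes), with a median log2 change of -1.65. All 5 but Fabp4 were called lower with array weights (1.32% of all genes). Without mutant 1 only Cidec was called (0.0446% of all genes). Adipoq, Cidec, Plin1 and Lep were listed at 0 in mutant 1, and Lep also in control 1 and in mutants 2 and 3. The part of these cell types in the collagen levels was not tested. In whole tissue, fewer cells of a type and less RNA per cell cannot be told apart.

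Upstream sequences are shown for the lower members that had an entry in the RefSeq promoter table (GRCm38.p6), which held 29 of the 36 chains. Col1a1 was among the 7 without one. Each runs 5′ to 3′ on the gene's strand within the 250 bases before the annotated start, less any bases that lie in annotated exons, and capitals mark matches on either strand to the TATA box (TATAAA), the CCAAT box (searched as CCAAT) or the GC box (GGGCGG), which do not overlap each other here.
Col1a2, chr6:4505370-4505492, plus strand: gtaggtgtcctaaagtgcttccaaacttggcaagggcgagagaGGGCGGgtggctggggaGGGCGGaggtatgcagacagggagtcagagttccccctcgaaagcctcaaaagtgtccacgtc
Col24a1, chr3:145292222-145292471, plus strand: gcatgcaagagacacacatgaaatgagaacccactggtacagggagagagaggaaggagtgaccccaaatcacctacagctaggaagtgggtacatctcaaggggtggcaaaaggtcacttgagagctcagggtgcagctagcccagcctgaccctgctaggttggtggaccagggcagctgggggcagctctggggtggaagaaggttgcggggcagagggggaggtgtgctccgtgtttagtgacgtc
Col17a1, chr19:47692095-47692292, minus strand: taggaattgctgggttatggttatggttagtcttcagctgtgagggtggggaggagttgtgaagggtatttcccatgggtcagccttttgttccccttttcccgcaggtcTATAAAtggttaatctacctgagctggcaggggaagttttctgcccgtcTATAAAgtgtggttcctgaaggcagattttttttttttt
The 3 stretches as printed share none of these motifs, while CCAAT stands in the whole 250-base windows of both Col1a2 and Col17a1. Col1a2 had 2 matches to GGGCGG and Col17a1 had 2 to TATAAA, the nearer one beginning 91 bases before the start. Over whole windows of 250 bases, GGGCGG stood in 17 of 29 members and in 32.7% of all 32851 windows of the table, CCAAT in 11 of 29 members and 33.8% of windows, and TATAAA in 3 of 29 members and 12.4% of windows.

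Of the transmembrane collagens Col17a1 was lower in mutants. It was 14.5, 15.2 and 16.6 FPKM in the controls, against 7.89, 10.8 and 7.87 FPKM in the mutants, with no overlap and means of 15.4 ± 1.06 and 8.86 ± 1.7 FPKM (SD, n = 3). The log2 change was -0.75 (SE 0.17, limma adjusted p = 0.695), and with array weights Col17a1 fell by 0.74 on the log2 scale (limma adjusted p = 0.0411). This call was lost when array weights were joined with median ratio scaling (limma adjusted p = 0.0523) and without mutant 1 (limma adjusted p = 0.111), and over the alternatives listed in the processing the limma adjusted p ran from 0.0411 to 0.872. In the authors' deposited table its p-value was 0.00713, the smallest of the 36 chains. Markers of basal epithelium (Krt5, Krt14, Krt15, Krt17 and Trp63) summed to 487 to 498 FPKM in controls and 256 to 282 FPKM in mutants. None of the 5 was at 0, and 4 of 5 were lower in every mutant (11.9% of all genes). The exception was Krt14, at 57.6 to 59.1 FPKM in controls and 81.4, 39.3 and 32.3 FPKM in mutants 1 to 3. With array weights all 5 but Krt17 were called lower (1.32% of all genes). Without mutant 1 only Krt5 was called (0.0446% of all genes). The part of epithelial cells in the level of Col17a1 was not tested.

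**Figure D3:**
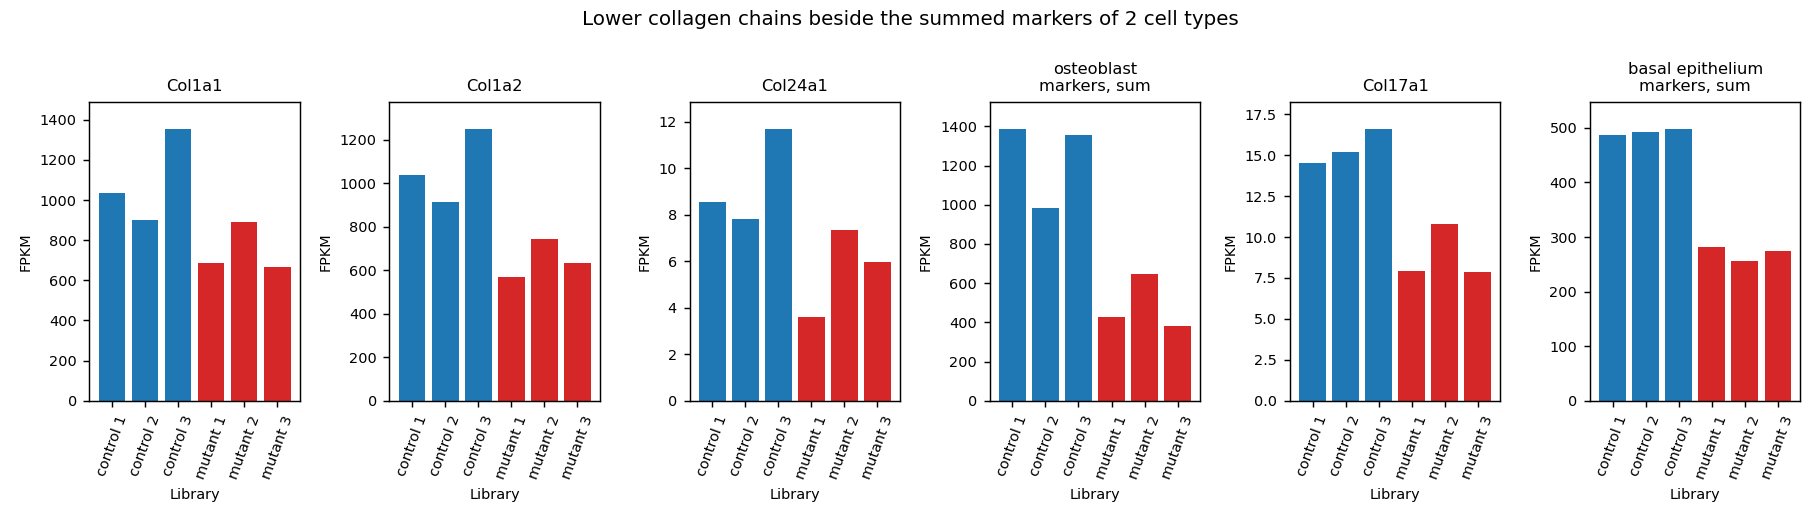
FPKM per library of Col1a1, Col1a2, Col24a1 and Col17a1 beside the summed FPKM of 9 osteoblast and 5 basal epithelium markers, in 3 controls (blue) and 3 Memo1 mutants (red), on axes that start at 0. The collagens drawn are the tested chains that were lower in every mutant, so for them this pattern was fixed in advance. Every red bar is lower than every blue bar in each panel. Osteoblast sums were 382 to 648 FPKM in mutants against 984 to 1386 FPKM in controls. The summed markers of fibroblast and tendon, adipocyte and skeletal muscle, not drawn, were also lower in every mutant than in any control.

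The genes that work with Col17a1 in hemidesmosomes were not lower in every mutant. Of 7 (Lama3, Lamb3, Itga6, Itgb4, Dst, Plec and Cd151) all were tested, 0 were called and 0 were lower in every mutant (11.9% of all genes). The median log2 change was 0.033 (-0.056 without mutant 1). Lama3 was listed at 0 in mutant 1 and was 2.16 to 2.62 FPKM in the other 5 libraries. Lamb3 and Itgb4 were far higher in mutant 1 than elsewhere (32.1 and 26 FPKM, against at most 4.02 and 4.82 FPKM). Without mutant 1, 2 of the 7 were below all controls, where 20.1% of all genes were. Those were Lamb3, a chain of the anchoring laminin, at 3.17 and 2.76 FPKM in mutants 2 and 3 and 3.25 to 4.02 FPKM in controls, and Cd151, at 37.5 and 36.6 FPKM against 38.8 to 42.4 FPKM; both were named after their values were seen. Col7a1, the collagen of the anchoring fibrils beneath the epithelium, was low in all libraries, at 1.009 to 1.46 FPKM in controls and 0.923 to 1.33 FPKM in mutants, and overlapped.

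The other 3 transmembrane chains overlapped between genotypes. Col23a1 was 17.8 to 18.4 FPKM in controls and 15.3, 19.3 and 21 FPKM in mutants 1 to 3, so that mutants 2 and 3 lay above and mutant 1 below the controls. Col25a1, known from muscle and its motor innervation, was 9.23 to 10.3 FPKM in controls and 3.44, 9.28 and 10.8 FPKM in the mutants, of which only mutant 1 was low. Col13a1, a collagen of the neuromuscular junction, was 7.85 to 8.17 FPKM in controls and 15.2, 7.96 and 6.14 FPKM in the mutants, of which mutant 1 was high. The sign of its log2 change turned from 0.16 to -0.18 without mutant 1. Skeletal muscle markers (Ckm, Myog, Myod1, Tnnt3 and Des) summed to 852 to 1250 FPKM in controls and 646 to 762 FPKM in mutants, and none was at 0. Of the 5 only Tnnt3 and Ckm were lower in every mutant (11.9% of all genes), while Myog, Myod1 and Des overlapped (median log2 change 0.0078).

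Of the tested basement membrane collagens only Col18a1 did not overlap between genotypes, with mutants above, as in 8.98% of all genes. Col4a1, the major collagen IV chain, was 114, 129.6 and 139 FPKM in the controls, against 114, 146 and 130.3 FPKM in the mutants (log2 change 0.028, SE 0.13, limma adjusted p = 0.915). Col4a2, which is built into the same molecule, was 60.1, 75.5 and 78.4 FPKM in the controls, against 69.3, 78.0 and 75.6 FPKM in the mutants. The groups overlapped for both genes, control 1 was the lowest library for both genes, and the sign of the change of both turned without it. Their ratio was 1.79 ± 0.0917 in controls and 1.75 ± 0.114 in mutants (SD, n = 3), with an exact permutation p = 0.60 (two-sided).

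The X-linked pair of Col4a5 and Col4a6 parted in mutant 1. Col4a5 was 5.87, 7.48 and 6.71 FPKM in the controls, against 31.6, 6.17 and 6.58 FPKM in the mutants, and Col4a6 was 1.13, 1.85 and 1.35 FPKM in the controls, against 0, 1.45 and 1.77 FPKM in the mutants. Mutant 1 was thus 4.23 times as high as any other library for the first gene and listed at 0 for the second. Mutants 2 and 3, of which mutant 3 was female, lay within the range of the controls for both genes. The stretches before their starts, which face away from each other, share no motif match as printed, while GGGCGG stands in the whole 250-base window of both. Capitals mark the same motifs as above, and the bases next to the start of Col4a5 are left out because they lie in an annotated exon.
Col4a6, chrX:141474077-141474326, minus strand: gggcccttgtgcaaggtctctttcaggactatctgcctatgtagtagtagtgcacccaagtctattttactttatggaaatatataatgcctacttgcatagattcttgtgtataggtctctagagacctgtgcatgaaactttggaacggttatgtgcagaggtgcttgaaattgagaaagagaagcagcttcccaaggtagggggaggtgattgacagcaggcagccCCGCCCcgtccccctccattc
Col4a5, chrX:141475169-141475384, plus strand: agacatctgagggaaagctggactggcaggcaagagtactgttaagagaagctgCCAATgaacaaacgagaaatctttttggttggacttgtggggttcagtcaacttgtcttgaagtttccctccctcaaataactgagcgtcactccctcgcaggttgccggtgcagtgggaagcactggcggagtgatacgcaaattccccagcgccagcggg
Col4a6 has 1 match to GGGCGG on the other strand, and Col4a5 has 1 to CCAAT. The third head-to-head pair, Col4a3 and Col4a4, known from specialised basement membranes such as that of the kidney glomerulus, was near the floor. Col4a3 reached at most 0.294 FPKM and was listed at 0 in mutant 1. Col4a4 was 0.159 to 0.182 FPKM in controls and 1.68, 0.297 and 0.331 FPKM in the mutants, each above all controls.

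Col15a1 and Col18a1 are the collagens of vessel and epithelial basement membranes whose ends can be cut off as restin and endostatin. Col18a1 was 42.2, 54.7 and 51.8 FPKM in the controls, against 60, 59.5 and 54.7 FPKM in the mutants. Each mutant lay above each control, but mutant 3 and control 2 differed by less than 0.1 FPKM (log2 change 0.23, SE 0.13, limma adjusted p = 0.695). Col15a1 was 70.3, 71.5 and 74.7 FPKM in the controls, against 134.5, 70.7 and 54.4 FPKM in the mutants, with mutant 1 high and mutant 3 low. Endothelial markers (Pecam1, Cdh5, Kdr, Tek, Tie1, Emcn and Cldn5) summed to 160.3 to 181 FPKM in controls and 176 to 187 FPKM in mutants, and none of the 7 was at 0.

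The main beaded filament chains overlapped between genotypes, and the minor chain Col6a6 did not, with mutants above, as in 8.98% of all genes. Col6a1 was 214, 225 and 277 FPKM in the controls, against 192, 256 and 228 FPKM in the mutants (log2 change -0.082, SE 0.15). Col6a2 was 240.02, 250.1 and 307 FPKM in the controls, against 299, 271 and 241 FPKM in the mutants (log2 change 0.030, SE 0.13). Col6a3, the largest chain of the main trimer, ranged from 98.8 to 127 FPKM in controls and from 109.6 to 129 FPKM in mutants. Each of these 3 groups overlapped. The ratio of Col6a1 to Col6a2 was 0.89, 0.901 and 0.901 in the controls, against 0.642, 0.944 and 0.943 in mutants 1 to 3. Mutants 2 and 3 lay above every control and mutant 1 below. Col6a6, a chain that can stand in for Col6a3, was 2.25, 3.74 and 4.12 FPKM in the controls, against 4.83, 4.75 and 4.36 FPKM in the mutants, which lay above all controls (log2 change 0.40, SE 0.27, limma adjusted p = 0.695). Its neighbours Col6a4 and Col6a5 stayed under 0.9 FPKM in all libraries and were listed at 0 in mutant 1.

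Among the FACITs Col14a1 and Col20a1 were higher in every mutant (8.98% of all genes), and the other 3 tested chains overlapped. Col14a1, which binds to type I fibrils and was named undulin, was 62.3, 69.7 and 76.7 FPKM in the controls, against 78.4, 91.3 and 85.9 FPKM in the mutants. The groups did not overlap (log2 change 0.29, SE 0.12, limma adjusted p = 0.695, and 0.34 with array weights, limma adjusted p = 0.102). Col12a1, the collagen of dense connective tissue under load, was 100.1 to 114 FPKM in controls and 103 to 111 FPKM in mutants (log2 change 0.027, SE 0.092). Col16a1 was 231, 243 and 276 FPKM in the controls, against 353, 225 and 219 FPKM in the mutants. Mutants 2 and 3 lay below all controls and mutant 1 above, and the log2 change went from 0.054 to -0.17 without mutant 1. Col22a1, a collagen of the myotendinous junction, was 15.54, 11.3 and 14.1 FPKM in the controls, against 2.9, 12.9 and 6.2 FPKM in the mutants. Mutant 2 lay inside the control range and mutants 1 and 3 below it (log2 change -0.99, SE 0.47, and -0.54 without mutant 1). Col20a1 was 1.54 to 1.79 FPKM in controls and 19.3, 2.42 and 2.18 FPKM in the mutants, each above all controls. Its log2 change of 1.18 (SE 0.76) was 0.31 without mutant 1. Col19a1 was at most 0.538 FPKM outside mutant 1, where it was 2.66 FPKM.

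The network-forming collagen VIII and the unclassed chains overlapped as well. Col8a2 was 107.95, 102 and 115 FPKM in the controls, against 129.1, 111 and 132 FPKM in the mutants (log2 change 0.19, SE 0.11). Col8a1, which can form trimers with it, was 49.2 to 57.1 FPKM in controls and 57.7, 37.1 and 52.6 FPKM in the mutants. Col26a1 was 199.8, 180.04 and 169.8 FPKM in the controls, against 112, 247 and 256 FPKM in mutants 1, 2 and 3. Mutants 2 and 3 lay above all controls and mutant 1 below them. The log2 change of Col26a1 was 0.072 (SE 0.33) with equal weights, 0.46 with array weights (limma adjusted p = 0.0533) and 0.46 without mutant 1 (limma adjusted p = 0.0972). Col28a1 was 1.62 to 3.18 FPKM in controls and 1.94 to 2.38 FPKM in mutants. Schwann cell markers, whose cells are known to make Col28a1, summed to 29.9 to 39 FPKM in controls and 25.6 to 37.2 FPKM in mutants over 4 genes, none of which was at 0.

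Ratios of 2 chains within a library do not depend on how that library was scaled in FPKM. Of 12 pairs 11 had both chains above 0 in every library, and in 4 of them the groups did not overlap. With 3 against 3 libraries the exact permutation test (two-sided) cannot go below p = 0.10, and no ratio passed. The ratio of Col5a1 to Col1a1 was 0.121, 0.136 and 0.112 in the controls and 0.197, 0.175 and 0.206 in the mutants. Every mutant lay above every control (log2 change 0.65, exact permutation p = 0.10, adjusted p = 0.275 over 11 pairs). The same p was reached by Col12a1 to Col1a1, at 0.0987 ± 0.0138 in controls and 0.147 ± 0.0281 in mutants, and by Col5a1 to Col5a2, at 0.735 ± 0.0246 and 0.891 ± 0.0318 (SD, n = 3). The ratios of Col5a1 and Col12a1 to Col1a1 share a denominator that was itself lower in every mutant, so they are not independent. Col5a1 and Col12a1 by themselves overlapped between genotypes. Col8a1 to Col8a2 was lower, at 0.483 ± 0.0144 in controls and 0.394 ± 0.0566 in mutants (SD, n = 3, exact permutation p = 0.10). The ratio of Col1a1 to Col1a2, whose chains share the type I molecule, was 1.001, 0.983 and 1.08 in the controls and 1.21, 1.2 and 1.05 in the mutants, and the groups overlapped (exact permutation p = 0.20). Col3a1 to Col1a1 was 1.06, 1.77 and 1.19 in the controls and 2.54, 1.54 and 2.24 in the mutants, of which mutant 2 lay within the control range (exact permutation p = 0.20).

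**Figure D4:**
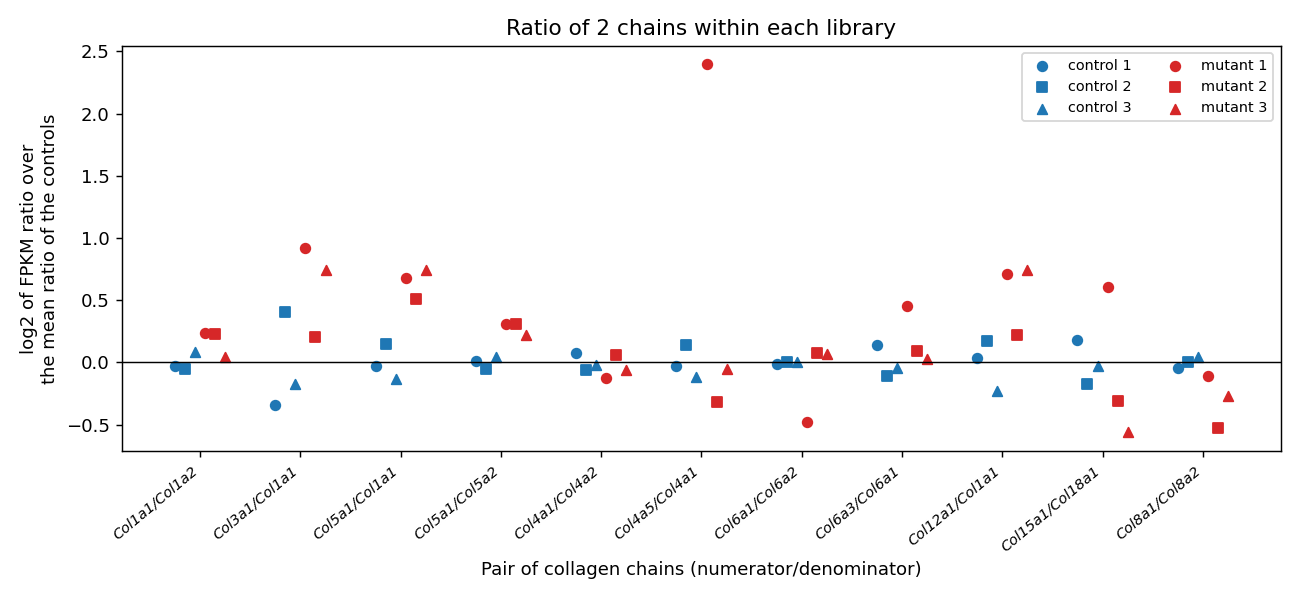
Ratio of the FPKM of 2 collagen chains within each library, as log2 over the mean ratio of the 3 controls, for the 11 pairs with both chains above 0, with controls in blue and Memo1 mutants in red. All red points are above all blue ones for Col5a1/Col1a1, Col5a1/Col5a2 and Col12a1/Col1a1 and below them for Col8a1/Col8a2, and mutant 1 stands far off for Col4a5/Col4a1.

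Summed by class, the fibrillar chains were 3482, 3719 and 4589 FPKM in the controls, against 3301, 3349 and 3107 FPKM in the mutants, with all mutants below (log2 change -0.26, exact permutation p = 0.10, adjusted p = 0.267 over 8 sums). Of these only Col1a1 (means of 1097 and 749 FPKM), Col1a2 (1067 and 649 FPKM) and Col24a1 were lower in every mutant, and the other fibrillar chains overlapped. The transmembrane chains were 51.1 ± 1.73 FPKM in controls, against 45 ± 2.87 FPKM in mutants (SD, n = 3), also without overlap and with the same p. Within that class only Col17a1 was lower in every mutant (means of 15.4 and 8.86 FPKM), and each other transmembrane chain overlapped. The sums of basement membrane, beaded filament, FACIT and unclassed chains overlapped. All 36 chains together were 5719 ± 721 FPKM in controls, against 5142 ± 185 FPKM in mutants (SD, n = 3), and overlapped (exact permutation p = 0.30). Set against the summed 8 cartilage chains, which the rule left out, they made 1.26, 1.16 and 1.15 in the controls and 0.769, 0.839 and 0.756 in the mutants (log2 change -0.60, exact permutation p = 0.10). In each control the summed FPKM of the non-cartilage chains was thus above that of the cartilage chains, and in each mutant it was below. The non-cartilage sum itself overlapped, while all cartilage chains but Col9a3 and Col10a1 were higher in every mutant (8.98% of all genes). Col2a1, the most abundant of them, was 1570 to 2207 FPKM in controls and 2315 to 2660 FPKM in mutants.

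The genes that bind, process and cross-link collagen were read from the same fit. Of 46 such genes in 5 lists 42 were tested and 0 were called with equal weights. The receptors Lair1 and Gp6 were too low to test and were listed at 0 in mutant 1, and Gp6 also in controls 1 and 3 and mutant 2. Of the 8 tested receptors 5 were higher in every mutant and 0 lower (median log2 change 0.29), where 8.98% of all genes were higher in every mutant. Among them Itga11, an integrin chain for fibrillar collagen, was 5.36 to 5.43 FPKM in controls and 5.24, 8.01 and 8.17 FPKM in mutants 1 to 3, and it rose by 0.51 on the log2 scale with array weights (limma adjusted p = 0.0493, and 0.0955 without mutant 1). It is not one of the 5, since mutant 1 was below the controls, and it was named after its values were seen. The receptor tyrosine kinase Ddr2 was 29.6 to 31.9 FPKM in controls and 32.8 to 39 FPKM in mutants, and Itga1, an integrin chain for collagen IV, 4.2 to 5.01 FPKM and 5.76 to 6.11 FPKM.

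Of 7 tested genes of propeptide processing, which trim the ends of fibrillar procollagens, 3 were higher and 1 lower in every mutant (8.98% and 11.9% of all genes). Tll1 and Tll2, relatives of the C-proteinase, were at most 1.36 FPKM and were listed at 0 in mutant 1. The lower one was Pcolce, the enhancer of the procollagen C-proteinase, at 197.5 to 247 FPKM in controls and 167 to 194 FPKM in mutants. The proteinase itself, Bmp1, was 45.7 to 48.2 FPKM in controls and 53.3 to 59 FPKM in mutants. Pcolce2 was 40.4 to 44.1 FPKM in controls and 23.6, 67.1 and 73.4 FPKM in the mutants, and rose by 0.73 on the log2 scale with array weights (limma adjusted p = 0.0234, and 0.0511 without mutant 1, named after its values were seen). Of 8 cross-linking genes 3 were higher and 0 lower in every mutant (8.98% and 11.9% of all genes). Plod2, a lysyl hydroxylase of collagen telopeptides, was 69.5 to 74 FPKM in controls and 84.7 to 129.4 FPKM in mutants, and Lox, the main lysyl oxidase, was 107 to 129.6 FPKM and 92.9 to 133.7 FPKM. Of 12 tested partners of collagen IV in basement membranes 7 were higher and 0 lower in every mutant (8.98% and 11.9% of all genes), with a median log2 change of 0.39, and 0.22 without mutant 1. The most abundant of them, the collagen-binding Sparc, named after its values were seen, had the opposite sign, at 1917 to 2416 FPKM in controls and 1593 to 1959 FPKM in mutants (log2 change -0.34). With array weights 2 of them rose: Pxdn, the peroxidase that cross-links collagen IV, was 51.9 to 59 FPKM in controls and 73 to 85.2 FPKM in mutants, and Nid2, a nidogen that links laminin to collagen IV, was 37.2 to 43.5 FPKM and 52.2 to 63.3 FPKM (limma adjusted p = 0.0479 for both, and 0.105 and 0.121 without mutant 1).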

How the data were processed

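One deposited table was used. It holds FPKM values that the authors computed for 6 libraries, with Cufflinks (no version) and mm9 per the submitters' processing notes. That the unit is FPKM is a reading of the tool and of the numbers, as no header states it. The sources used here give neither the aligner and annotation nor the test behind the p-value column that the authors deposited. Entries with a placeholder for a missing value in any library (15, no collagen among them) were left out. An exact 0 may be a failed estimate, so collagens at 0 in a library are given by library or as listed at 0.

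A two-sided test of genotype, the sole covariate, was fitted by limma 3.58.1 (R 4.3.3; eBayes with trend and robust) to log2(FPKM + 1) of all genes averaging 1 FPKM or more. P-values were adjusted over all of them by Benjamini-Hochberg, and the threshold was 0.05. This scale understates changes of low genes. Ratios and sums were tested by exact permutation over libraries. The limma step was checked on simulated data. The members and gene lists were chosen with earlier results of these data known. A few list genes are not reported here and were left out of the lists' sums and counts. Every tested member is named, with up to 4 genes per list by smallest p, of which some are printed, and defining markers (Lox among the enzymes). Replicates are numbered in accession order and pair no samples. The labels name separate embryos, without saying whether they share a litter. The first word of the sample titles, shared by some embryos, served as a block in an alternative (statmod 1.5.0). Other alternatives were array weights, pseudocounts of 0.1 and 5, no filter, a filter at 5 FPKM, median ratio scaling and leaving out each library. Depth was read from ratios of low values (below 0.1 FPKM in control 1, within 2%). Coding exons were read by gene ID and promoters by symbol. The genome they come from is GRCm38, so no coordinates were joined to the table.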

Additional observations from a re-analysis of the deposited data

How the results depend on the processing

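Over all genes, limma called 0 with equal weights, 320 with array weights, 227 with array weights and median ratio scaling and 22 without mutant 1 when genes were filtered anew; the last 2 were chosen after seeing the data. Leaving out 1 library gave 0 to 7. Of the collagens 1 was called with array weights and 0 in every other setting. Of the partner genes 4 were called with array weights and 2 with array weights and median ratio scaling. With the first title word as a replicate block, fixed or random, 0 genes, 0 collagens and 0 partner genes were called, as without the block. Of 31 collagens 13, among them Col1a1, Col1a2, Col17a1, Col24a1 and Col14a1, kept the sign of their log2 change in every alternative named in the processing. The log2 change of the others turned. With array weights it was -0.0717 for Col5a3, -0.0337 for Col4a5, 0.105 for Col4a6, 0.0115 for Col7a1, -0.26 for Col15a1, 0.00948 for Col6a1, -0.0576 for Col6a2, -0.161 for Col16a1, -0.222 for Col13a1, 0.077 for Col25a1 and 0.0113 for Col28a1. With median ratio scaling it was -0.0075 for Col4a1, -0.00578 for Col6a2, -0.00906 for Col12a1 and -0.00644 for Col23a1. With the fixed replicate block it was -0.022 for Col4a1, 0.0747 for Col8a1 and -0.0423 for Col26a1.

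When single libraries were left out, the log2 change ran from -0.067 to 0.209 for Col3a1, -0.0859 to 0.31 for Col5a3, -0.0577 to 0.118 for Col4a1, -0.0518 to 0.137 for Col4a2, -0.0556 to 1.04 for Col4a5, -0.631 to 0.103 for Col4a6, -0.146 to 0.0245 for Col7a1, -0.215 to 0.43 for Col15a1, -0.179 to 0.0287 for Col6a1 and -0.045 to 0.138 for Col6a2. It ran from -0.0139 to 0.0762 for Col12a1, -0.168 to 0.174 for Col16a1, -0.179 to 0.41 for Col13a1, -0.0652 to 0.152 for Col23a1, -0.652 to 0.0522 for Col25a1, -0.234 to 0.0777 for Col8a1, -0.135 to 0.459 for Col26a1 and -0.168 to 0.169 for Col28a1. The log2 ratio ran from -0.0887 to 0.00348 for Col4a1/Col4a2, -0.182 to 1.17 for Col4a5/Col4a1, -0.206 to 0.072 for Col6a1/Col6a2 and -0.429 to 0.157 for Col15a1/Col18a1. The log2 change of the sum ran from -0.0501 to 0.116 for beaded filament chains (-0.0264 with median ratio scaling), -0.038 to 0.172 for FACITs and -0.000252 to 0.279 for unclassed chains. The causes were not tested. The 3 libraries per group limit precision, and low chains are the least certain.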
